A study of Homo sapiens with 4 samples.

Results

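SCARA5, a scavenger receptor for ferritin, and 9 genes that carry, store, export or sense iron were followed in U118-MG glioma cells with and without an introduced SPNS2. The genes were chosen by name as SCARA5, FTH1, FTL, TFRC, TF, SLC40A1, SLC11A2, NCOA4, STEAP3 and IREB2, and all 10 were found among the 61806 genes of the count table. The choice was made with earlier results of this comparison known, in particular the loss of SCARA5 counts in the SPNS2 libraries. Levels and fold changes of these 10 genes are therefore given as a description, without a test.

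U118-MG is an established human glioma line, and the labels give both groups the genotype WT. The SPNS2 group (2 libraries) was infected with a pCDH-CMV-MCS-EF1-puro lentivirus carrying a cDNA of SPNS2, a transporter that exports sphingosine 1-phosphate, and the NC group (2 libraries) with the negative control vector. Both groups thus carry a lentiviral vector, and the labels say neither whether cells were cloned nor whether replicates are separate cultures, so p-values measure only the spread between these libraries, which may be technical. SPNS2 itself had 7381 and 8224 counts in the SPNS2 libraries, against 42 and 47 in the NC libraries, with the vector and the cells' own gene counted together. Library totals ran from 31353373 to 34125159 counts. Replicates were not copies of one another: the chi-square between them, over its degrees of freedom, was 33.7 in SPNS2 and 27.5 in NC.

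Of 10 astrocyte and glioma markers, 5 had a mean of at least 1 CPM (the count scaled to library size, with TMM factors), and the 10 summed to 7306 and 6755 CPM in the SPNS2 libraries and 4471 and 5166 CPM in the NC libraries, mostly VIM. SLC1A3, a glutamate transporter of astrocytes, was 18.5-fold higher in SPNS2 (edgeR adjusted p = 0.00158) and VIM 1.485-fold higher (edgeR adjusted p = 0.0205). NES, nestin, was 1.78-fold lower in SPNS2 (edgeR adjusted p = 0.0243), while CD44 and SOX9 were not called. S100B had no counts, and GFAP, AQP4, SOX2 and OLIG2 had at most 8 counts in a library, so these defining markers of astrocytes and glial progenitors were at or near 0 in cells labelled as glioma. Fibroblast markers were abundant, and their summed level was 2081 and 2015 CPM in the SPNS2 libraries and 3007 and 2976 CPM in the NC libraries. Epithelial and hepatocyte markers summed to at most 0.325 CPM in any library, and endothelial markers to between 4.24 and 6.83 CPM. Of the latter, PECAM1 was 2.10-fold higher and VWF 6.31-fold lower in SPNS2 (edgeR adjusted p = 0.0465 for each). The neuronal pair summed to 7.89 and 12.9 CPM in SPNS2 and 3.65 and 2.02 CPM in NC, all of it SNAP25, since RBFOX3 had no counts. The 4 macrophage and leukocyte markers summed to 76.9 and 67.3 CPM in SPNS2 and 130 and 111 CPM in NC, nearly all of it from CD68, while PTPRC had at most 10 counts in a library.

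Most cells take up iron bound to transferrin (TF) through the transferrin receptor (TFRC), reduce it in endosomes with STEAP3 and pass it to the cytosol through SLC11A2. Ferritin, a shell of FTH1 and FTL subunits, stores the metal, the cargo receptor NCOA4 delivers ferritin to lysosomes for its release, and ferroportin (SLC40A1) exports it. SCARA5 offers a route apart from transferrin, since it binds serum ferritin, a role described in mouse kidney. Iron regulatory proteins, of which IREB2 encodes one, bind a hairpin called the iron-responsive element. At the 5′ end of an mRNA their binding blocks translation, and at the 3′ end of TFRC mRNA it protects the transcript from decay.

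The hairpins are shown because those at the 5′ end act on translation, which RNA counts do not record, while those of TFRC act on its mRNA level. They were searched in GENCODE release 29 transcripts on GRCh38 as a C, 5 bases, the loop CAGTGN (capitals) and 5 bases able to pair with the first 5, on the transcript strand only, with overlapping matches kept. Each is printed with 6 flanking bases on each side.
FTH1, 5′ UTR, minus strand, chr11:61967574-61967602: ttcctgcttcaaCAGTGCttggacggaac
FTL, 5′ UTR, plus strand, chr19:48965335-48965363: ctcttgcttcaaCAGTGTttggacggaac
SLC40A1, 5′ UTR, minus strand, chr2:189580661-189580689: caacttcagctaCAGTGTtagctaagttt
TFRC, 3′ UTR, minus strand, chr3:196050979-196051007: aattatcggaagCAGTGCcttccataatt
TFRC, 3′ UTR, minus strand, chr3:196050575-196050603: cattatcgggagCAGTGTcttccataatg
TFRC, 3′ UTR, minus strand, chr3:196050510-196050538: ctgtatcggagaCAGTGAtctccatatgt
TFRC, 3′ UTR, minus strand, chr3:196050463-196050491: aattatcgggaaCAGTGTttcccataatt
The printed stretches of FTH1 and FTL, flanks included, were identical at 26 of 29 bases, and TFRC held 4 matches. A match was present in any protein-coding transcript of 1.48% of 19702 genes. The hairpin stood in 7 of 8 protein-coding transcripts of FTH1, in the 1 of FTL, in 3 of 4 of TFRC and in 1 of 5 of SLC40A1. TF had a match in the 3′ UTR of 1 of 3 transcripts, and no such letters were found in transcripts of SCARA5, SLC11A2, NCOA4, STEAP3 or IREB2. The pattern also misses elements described for SLC11A2, EPAS1 and CDC42BPA, so a missing match is not a missing element.

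SCARA5 (ENSG00000168079, chromosome 8, 27869882 to 27992727 on GRCh38, minus strand) had 0 and 0 counts in the SPNS2 libraries, against 784 and 739 counts in the NC libraries. Both NC libraries were far above both SPNS2 libraries, and the groups did not overlap. Its level in NC was 23.2 ± 1.76 CPM (SD, n = 2). With a floor of 3 counts, which is 0.0468 CPM over the SPNS2 group, and the NC mean, SCARA5 was at least 496-fold lower in SPNS2. The 95% counting interval reaches 0.0575 CPM in SPNS2 and begins at 22.0 CPM in NC, so the fold could be smaller than this bound. These limits cover counting error only. Over a single library the floor is higher, and the bound was 258-fold without SPNS2 replicate 1 and 238-fold without SPNS2 replicate 2. In bulk RNA, fewer cells with the transcript and less of it per cell cannot be told apart. None of the 4 annotated features inside SCARA5 had a count in any library. The fibroblast markers DCN and LUM, which were 32.8-fold and 10.6-fold lower in SPNS2, moved with SCARA5, whereas COL1A1 and PDGFRB were 1.36-fold and 1.33-fold higher, and their part in the SCARA5 result was not tested.

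**Figure D1:**
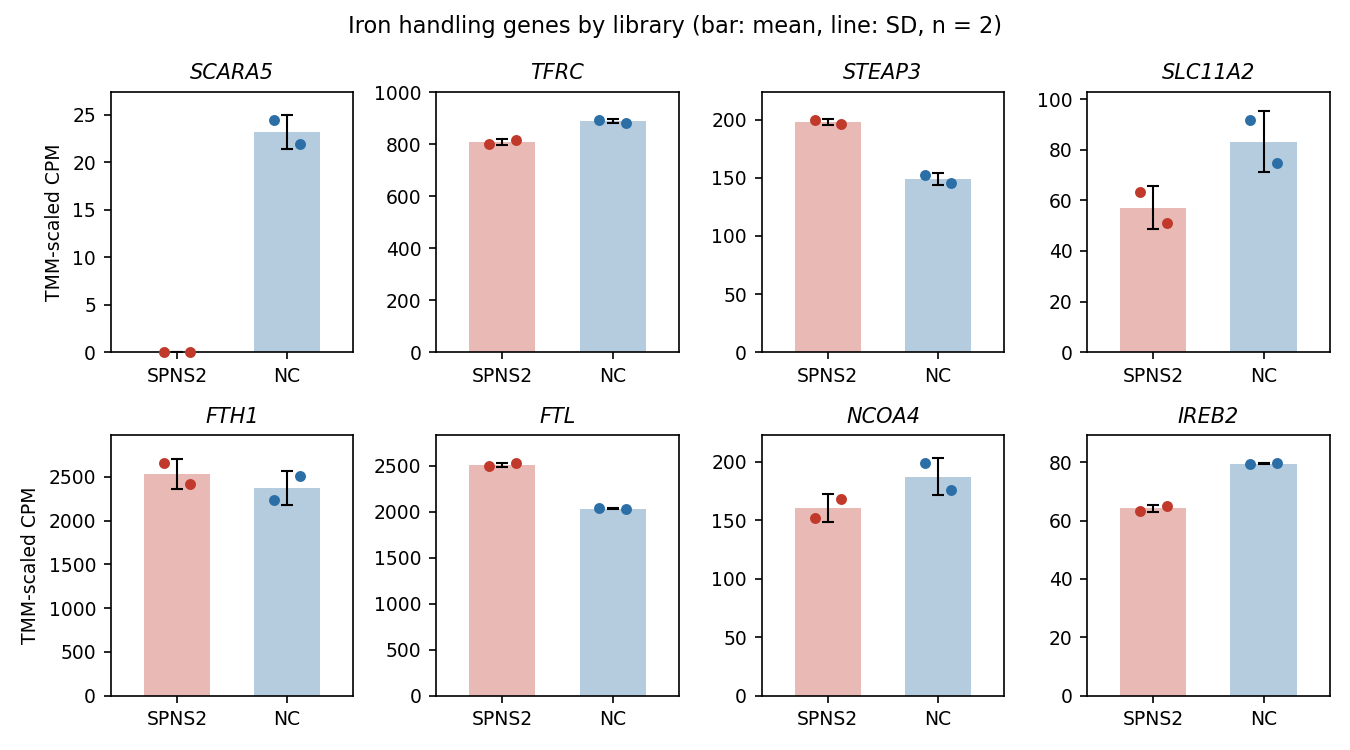
TMM-scaled CPM (vertical axes, from 0) of the 8 genes that passed the filter on low counts, with the SPNS2 libraries left of the NC libraries, 1 point per library, bars at the mean and lines for the SD (n = 2). SCARA5 sits at 0 in both SPNS2 libraries and at 24.5 and 22.0 CPM in NC, FTL and STEAP3 lie higher in both SPNS2 libraries, and the libraries of the 2 groups overlap only for FTH1.

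Among the 126 tested genes with 0 counts in both SPNS2 libraries, SCARA5 had the highest level in NC. All of them passed the filter on low counts only through their NC libraries. SCARA5 was chosen with its loss known, so its rank is a description. Next in level were ADH7, an alcohol dehydrogenase, at 11.7 CPM in NC, and EYA2, a transcriptional coactivator, at 9.61 CPM in NC. Both were named after their values were seen. By distance in log2 CPM over the 4 libraries, the patterns most like SCARA5 were those of ENSG00000276612 (distance 1.15), ADH7 (1.39), ZNF677 (1.70), ADH1B (1.80) and EYA2 (1.80). ENSG00000276612, which the count table lists by its identifier alone, had 0 and 1 counts in SPNS2 and 448 and 490 in NC. ADH1B had 0 and 5 counts in SPNS2 and 677 and 674 in NC. This likeness rests on 4 libraries in 2 groups.

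The genes on each side of SCARA5 differed from each other. NUGGC, a nuclear GTPase of germinal centre B cells, begins 29237 bases beyond SCARA5 and had 0 and 0 counts in SPNS2, against 66 and 54 in NC. Like SCARA5, NUGGC passed the filter on low counts only through its NC libraries, so its p-value is given as a description. With the same floor of 3 counts the bound was 39.2-fold lower in SPNS2, and, as for SCARA5, counting error allows a smaller fold. NUGGC was called lower (edgeR quasi-likelihood test, Benjamini-Hochberg adjusted p = 0.0117). That call was lost without NC replicate 1 or NC replicate 2, with an adjusted p of at most 0.0693. PBK, a mitotic kinase gene 31787 bases to the other side, was at 104 and 109 CPM in SPNS2 and 92.4 and 101 CPM in NC (edgeR adjusted p = 0.249). Within 1 Mb of SCARA5, 3 of the 17 other tested genes, NUGGC among them, were called lower, 1 was called higher and 13 were not called. The shares over all tested genes were 11.3% lower and 12.1% higher (23.4% called in all). Over 5 Mb on each side the median log2 fold change of 68 tested genes was 0.04.

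**Figure D2:**
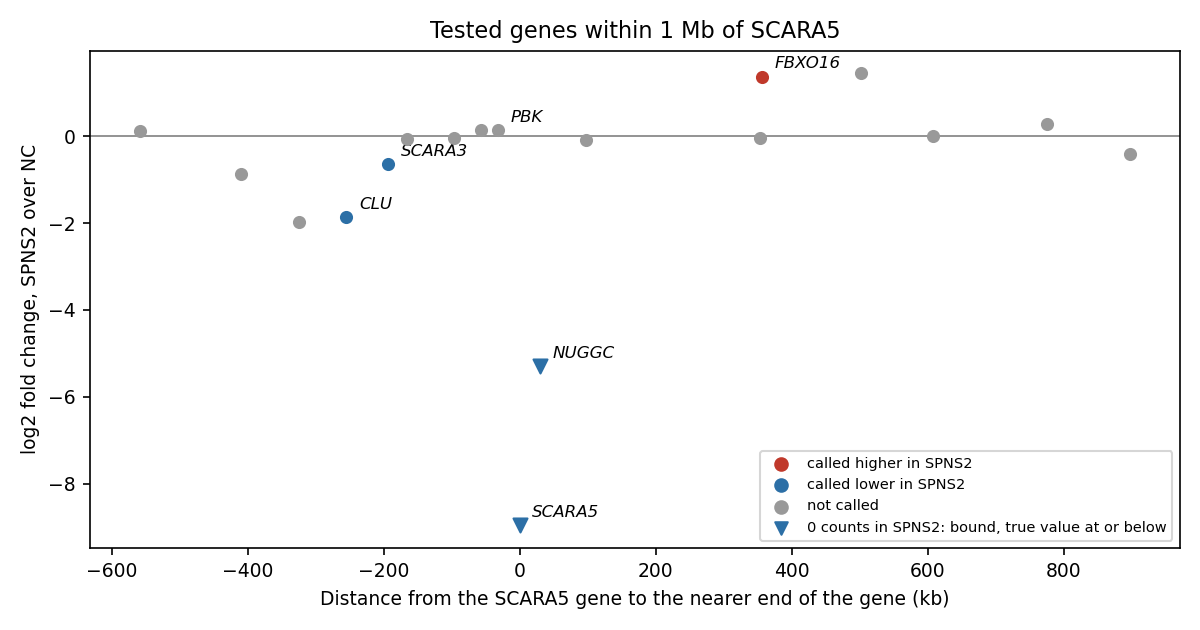
Log2 fold change of SPNS2 over NC (vertical axis) of the tested genes within 1 Mb of SCARA5 against their distance from it in kb (horizontal axis), 1 marker per gene. Triangles mark genes with 0 counts in SPNS2, drawn at their bound. SCARA5 has the colour of genes called lower, but no call is read for it. SCARA5 and NUGGC, side by side, lie far below the others, while PBK, the nearest gene on the other side, lies at 0.14.

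On the transferrin route, the receptor was slightly lower and the reductase higher in the SPNS2 cells. TFRC (ENSG00000072274, chromosome 3, 196027183 to 196082189) was at 799.9 and 815 CPM in SPNS2 and at 893 and 883 CPM in NC. Both SPNS2 libraries lay below both NC libraries, by a log2 fold change of -0.14 (SE 0.041). STEAP3 (ENSG00000115107, chromosome 2, 119223831 to 119265652), the ferric reductase of endosomes, was at 199.9 and 196 CPM in SPNS2 and at 153 and 145 CPM in NC. It was 1.33-fold higher in SPNS2 and the groups did not overlap. Its antisense partner STEAP3-AS1 had 3 to 59 counts per library, which is small beside the counts of STEAP3. SLC11A2 (ENSG00000110911, chromosome 12, 50979401 to 51028566), the divalent metal transporter DMT1, was at 63.1 and 51.2 CPM in SPNS2 and at 91.8 and 74.6 CPM in NC. It was 1.46-fold lower in SPNS2 with no overlap, but the 2 libraries of each group lay farther apart than the nearest libraries of different groups. Its transcripts with and without an iron-responsive element are known to differ in their 3′ ends and were not separated in these counts.

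Transferrin and ferroportin transcripts were near or below what these libraries could detect. TF (ENSG00000091513) had 0 and 0 counts in SPNS2 and 2 and 0 in NC, and SLC40A1 (ENSG00000138449) had 0 in all 4 libraries. SRPRB, which overlaps TF on the same strand, had 1462 and 1379 counts in SPNS2 and 3542 and 1506 in NC. How reads in any stretch shared by SRPRB and TF were counted is not given, so the TF counts carry that uncertainty. The floor of 3 counts is 0.0468 CPM over the SPNS2 group and 0.0457 CPM over the NC group. No fold is given for either gene, and both failed the filter on low counts, which left 8 of the 10.

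The ferritin subunits were the most abundant of these transcripts, and they differed in how they compared between the groups. FTL (ENSG00000087086, chromosome 19, 48965301 to 48966878), the light subunit that favours the iron core, was at 2497 and 2526 CPM in SPNS2 and at 2041 and 2028 CPM in NC. Both SPNS2 libraries were higher, by 1.23-fold, and libraries of a group lay close together (SD 20.5 CPM in SPNS2 and 9.59 CPM in NC). FTH1 (ENSG00000167996, chromosome 11, 61959718 to 61967660), the heavy subunit with ferroxidase activity, was at 2654 and 2414 CPM in SPNS2 and at 2238 and 2506 CPM in NC. Here the groups overlapped, with a log2 fold change of 0.10 (SE 0.078). Within a library, the ratio of FTH1 to FTL counts was 1.06 and 0.956 in SPNS2 and 1.10 and 1.24 in NC, lower in both SPNS2 libraries. The ratio of TFRC to FTL counts was 0.320 and 0.323 in SPNS2 and 0.437 and 0.435 in NC, also without overlap.

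Processed copies of the ferritin genes took few counts beside the genes themselves. The 25 copies of FTH1 in the table, of which 14 had a count, summed to 1978 and 2056 counts in SPNS2 and 2033 and 2160 in NC, which is 2.42% to 2.83% of the FTH1 counts. The most counted were FTH1P7 with 624 to 705 counts per library and FTH1P2 with 308 to 441. The 16 copies of FTL summed to at most 85 counts in a library, nearly all of FTLP3, and the other copy with counts, FTLP2, had at most 3. How reads that match a gene and its copies were divided is not given in the sources used here, so the ferritin levels carry that uncertainty. BEST1, which overlaps FTH1 on the opposite strand, had 522 and 1266 counts in SPNS2 and 1583 and 1772 in NC, a small amount beside FTH1.

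NCOA4 and IREB2, which act on stored iron and on its sensing, were both lower in the SPNS2 libraries. NCOA4 (ENSG00000266412, chromosome 10, 46005088 to 46030714) was at 152 and 169 CPM in SPNS2 and at 199 and 176 CPM in NC. It was 1.17-fold lower in SPNS2 without overlap, but in each group the replicates differed by more than the gap between the groups. IREB2 (ENSG00000136381, chromosome 15, 78437431 to 78501456), which encodes iron regulatory protein 2, was at 63.3 and 65.1 CPM in SPNS2 and at 79.4 and 79.6 CPM in NC. It was 1.24-fold lower in SPNS2, and the libraries of each group lay within 2 CPM of each other.

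No call is read for the 10 chosen genes, and SCARA5 passed the filter on low counts only through its NC libraries. Among all 17853 tested genes 4171 were called at an edgeR adjusted p under 0.05, which is 23.4%, with 12.1% higher and 11.3% lower. Leaving out SPNS2 replicate 1 or 2 left 2144 or 1965 calls, and leaving out NC replicate 1 or 2 left 1712 or 1759. The groups did not overlap for 7 of the 8 genes that passed the filter, beside 66% of all tested genes, and nothing is read from this count because the genes were chosen with the comparison known.

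Per kilobase of exon (the union of all annotated exons), the order of levels was FTL, FTH1, TFRC and then STEAP3 and NCOA4, followed by IREB2, SLC11A2 and SCARA5. FTL stood at 2860 CPM per kb in SPNS2 and 2320 in NC, FTH1 at 1250 in SPNS2 and 1170 in NC, and TFRC at 102 in SPNS2 and 113 in NC. The distance between FTL and FTH1 depends on the exon lengths of 878 and 2030 bases, which hold every annotated isoform. STEAP3 was above NCOA4 in both SPNS2 libraries (43.8 and 43.0 against 37.2 and 41.4 CPM per kb) and below it in both NC libraries (33.5 and 31.8 against 48.8 and 43.2 CPM per kb). IREB2 and SLC11A2 overlapped in SPNS2, at 5.86 and 6.02 against 6.22 and 5.04 CPM per kb. In NC they were at 7.35 and 7.37 for IREB2 against 9.05 and 7.35 CPM per kb for SLC11A2. SCARA5 had 5.51 and 4.95 CPM per kb in NC, below IREB2 and SLC11A2 in both NC libraries.

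The level of neighbouring genes is given beside each value, since FTH1 and NCOA4 lie among genes whose median was below 0. The median log2 fold change of other tested genes within 5 Mb was -0.39 around FTH1 (226 genes) and -0.36 around NCOA4 (61 genes), while FTH1 itself was at 0.10 and NCOA4 at -0.23. It was 0.15 around TFRC, whose own value was -0.14, and 0.16 around STEAP3, whose own value was 0.41. Around SLC11A2, IREB2 and FTL the medians were -0.19, -0.13 and 0.04, with own values of -0.54, -0.31 and 0.30. The part of the neighbourhood in these values was not tested.

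**Figure D3:**
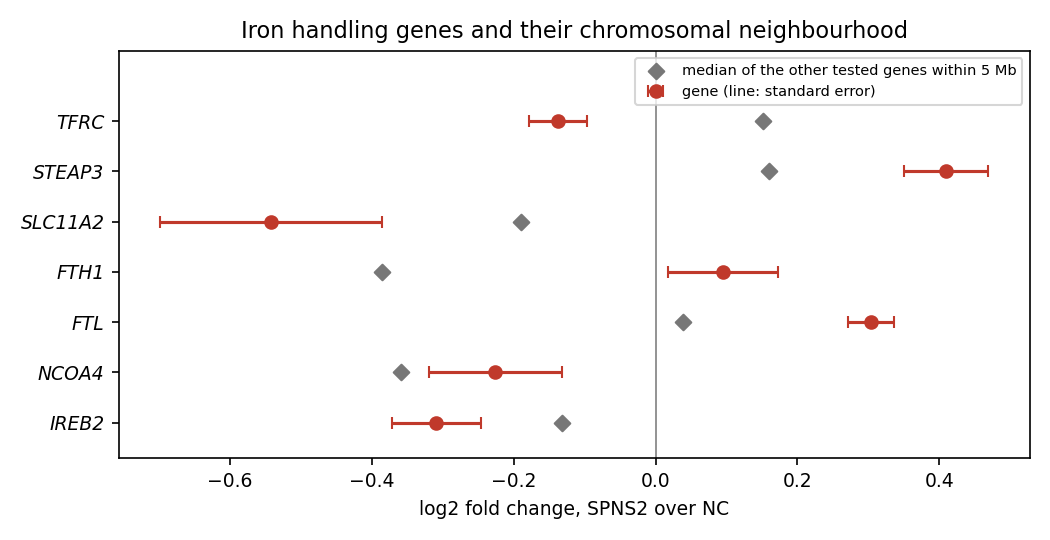
Log2 fold change of SPNS2 over NC (horizontal axis) of 7 iron handling genes, with the fit's standard error as a line, and the median of the other tested genes within 5 Mb as a diamond. FTH1 and TFRC lie on the opposite side of 0 from their neighbourhoods, and NCOA4 lies closer to 0 than its neighbourhood.

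Other genes of iron metabolism came from 7 lists that hold 90 genes, of which 77 were tested. These lists, too, were chosen with earlier results of these data known. The calls, p-values and shares called of the 7 lists, here and below, are therefore given as a description. Setting them beside the shares over all tested genes is not a test of enrichment. By the edgeR quasi-likelihood test 8 were called higher and 16 lower in SPNS2, beside 12.1% higher and 11.3% lower over all tested genes, and 53 were not called. With any 1 library left out, fewer were called in each direction, among these genes and over all tested genes alike. The shares given here therefore hold for the fit of all 4 libraries only. The median log2 fold change of the 77 was 0.01, against -0.01 over all tested genes. TFR2, FTMT, HAMP, HJV and ALAS2, which include the hormone hepcidin (HAMP) and mitochondrial ferritin (FTMT), had no counts in any library.

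The other class A scavenger receptors, relatives of SCARA5, fell where they were detected. MSR1, a receptor for modified lipoproteins known from macrophages, was at 4.55 and 3.90 CPM in SPNS2 and at 13.9 and 13.8 CPM in NC, 3.27-fold lower (edgeR adjusted p = 0.00592). SCARA3, which shares the chromosome 8 region of SCARA5 (27633868 to 27676776), was at 148 and 145 CPM in SPNS2 and at 231 and 224 CPM in NC, 1.56-fold lower (edgeR adjusted p = 0.00487). COLEC12, a scavenger receptor with a collectin domain, was at 377 and 382 CPM in SPNS2 and at 558 and 547 CPM in NC, 1.46-fold lower (edgeR adjusted p = 0.00459). All 3 tested genes of this short list were called lower, beside 11.3% of all tested genes. Their fold changes stayed below 0 in each of the 10 alternative settings. MARCO had 2 counts over all libraries and was not tested. None of the 3 came near the loss seen for SCARA5. CD68, the abundant macrophage marker, was 1.69-fold lower in SPNS2, while PTPRC, CD14 and CD163 had at most 27 counts in a library. CD14 went the other way from CD68, with 17 and 21 counts in SPNS2 and 8 and 0 in NC, and was not called. CD163 had 4 and 27 counts in SPNS2 and 3 and 8 in NC, and PTPRC had 0 and 7 in SPNS2 and 4 and 10 in NC. The part of other cell types was not tested.

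**Figure D4:**
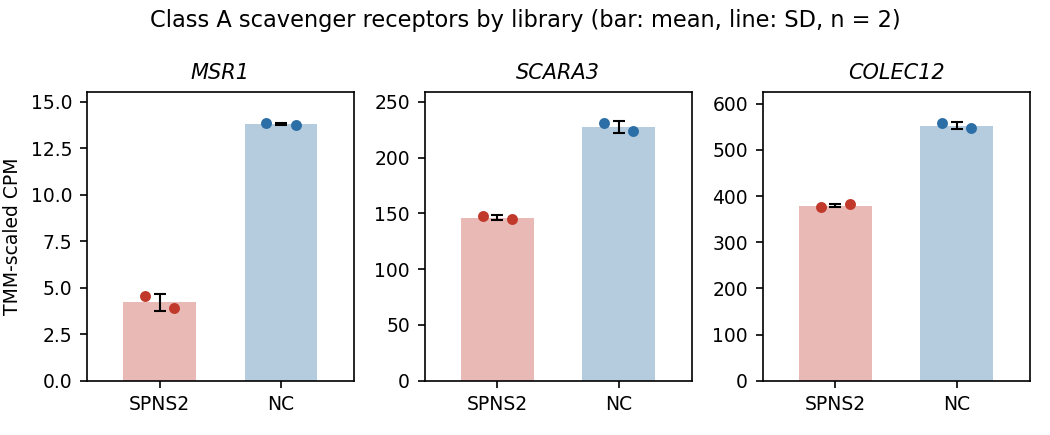
TMM-scaled CPM (vertical axes, from 0) of the class A scavenger receptors MSR1, SCARA3 and COLEC12, SPNS2 libraries left of NC libraries, 1 point per library, bars at the mean and lines for the SD (n = 2). Both SPNS2 libraries lie below both NC libraries for each receptor.

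In the list of iron uptake and reduction, 2 of 10 tested genes rose, 2 fell and 6 were not called. That is 40% called, beside 23.4% of all tested genes, with a median log2 fold change of 0.32. CYBRD1, a ferric reductase of the plasma membrane, was at 297 and 286 CPM in SPNS2 and at 543 and 526 CPM in NC, 1.84-fold lower (edgeR adjusted p = 0.00241). STEAP1, of the same family as STEAP3, went the other way, at 130 and 128 CPM in SPNS2 and 70.7 and 71.3 CPM in NC, 1.82-fold higher (edgeR adjusted p = 0.00302). SLC22A17, a receptor for the siderophore carrier lipocalin 2, rose 5.69-fold to 5.82 ± 2.25 CPM in SPNS2, against 1.02 ± 0.0727 CPM in NC. SLC39A8, a metal transporter of zinc, manganese and iron, fell 1.73-fold. The calls of SLC22A17 and SLC39A8 were lost without either NC replicate, and that of SLC39A8 also without SPNS2 replicate 2, with an adjusted p of at most 0.0737 and 0.0717.

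In the list of iron chaperones and export, 1 of 6 tested genes rose, 2 fell and 3 were not called. That is 50% called, beside 23.4% of all tested genes, with a median log2 fold change of 0.00. CP, NEO1 and BMP6 had the largest fold changes of the 77 tested genes. CP, the copper ferroxidase ceruloplasmin that works beside ferroportin, was at 1.14 and 0.270 CPM in SPNS2 and at 17.9 and 16.5 CPM in NC, 24.6-fold lower (edgeR adjusted p = 0.0137). The call of CP was lost without either NC replicate (adjusted p of at most 0.052). BMP6, the ligand that drives hepcidin in the liver, was at 1.11 and 1.38 CPM in SPNS2 and at 11.8 and 10.4 CPM in NC, 8.93-fold lower (edgeR adjusted p = 0.0031). NEO1, neogenin, a receptor that binds hemojuvelin as well as netrins, was at 113 and 117 CPM in SPNS2 and at 11.3 and 14.3 CPM in NC, 8.97-fold higher (edgeR adjusted p = 0.00138). The other 3 tested genes of this list, the iron chaperones PCBP1 and PCBP2 and the ferroxidase HEPH, were not called, and PCBP1 was at 326 ± 0.411 CPM in SPNS2 and 324 ± 5.26 CPM in NC.

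Among 7 genes that control iron genes, 1 rose, 2 fell and 4 were not called. That is 42.9% called, beside 23.4% of all tested genes, with a median log2 fold change of -0.06. FBXL5, the ubiquitin ligase subunit that removes iron regulatory protein 2, was at 46.8 and 49.1 CPM in SPNS2 and at 74.2 and 76.3 CPM in NC, 1.57-fold lower (edgeR adjusted p = 0.00839). FBXL5 and its target's gene IREB2 were thus both lower in the SPNS2 libraries. BACH1, a heme-binding repressor of HMOX1 and of ferritin genes, was at 121 and 122 CPM in SPNS2 and at 66.2 and 65.1 CPM in NC, 1.85-fold higher (edgeR adjusted p = 0.00299). NFE2L2, which encodes the activator NRF2 of the same genes, was at 34.6 and 26.8 CPM in SPNS2 and at 47.6 and 54.6 CPM in NC, 1.66-fold lower (edgeR adjusted p = 0.0404). HMOX1, heme oxygenase 1, was at 187 and 206 CPM in SPNS2 and at 151 and 167 CPM in NC and did not pass the test (edgeR adjusted p = 0.0717). The call of NFE2L2 was lost without either NC replicate and without SPNS2 replicate 2 (adjusted p of at most 0.139). ACO1, which encodes iron regulatory protein 1, was at 530 ± 16.3 CPM in SPNS2 and 496 ± 5.13 CPM in NC (edgeR adjusted p = 0.224).

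Of 4 other tested mRNAs described with an iron-responsive element, EPAS1 and CDC42BPA fell and the rest were not called. That is 50% called, beside 23.4% of all tested genes, with a median log2 fold change of -0.05. EPAS1, which encodes the hypoxia factor HIF-2α, was at 418 and 414 CPM in SPNS2 and at 529 and 499 CPM in NC, 1.24-fold lower (edgeR adjusted p = 0.0229). CDC42BPA, a kinase of cytoskeletal control, was 1.35-fold lower (edgeR adjusted p = 0.0209). The call of EPAS1 was lost when any 1 library was left out, and that of CDC42BPA without either NC replicate or without SPNS2 replicate 1, with an adjusted p of at most 0.0945 for EPAS1 and 0.0862 for CDC42BPA.

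Of 20 tested genes of heme synthesis, transport and breakdown 1 rose, 4 fell and 15 were not called (25% called, beside 23.4% of all tested genes, with a median log2 fold change of 0.02). The transporters FLVCR1, TMEM14C and SLC25A38 were among those not called. SLC48A1, which moves heme out of lysosomes, was at 11.9 and 11.0 CPM in SPNS2 and at 50.2 and 44.3 CPM in NC, 4.13-fold lower (edgeR adjusted p = 0.00247). ABCB6, a porphyrin transporter, fell 2.34-fold to 14.5 ± 4.66 CPM in SPNS2, against 33.9 ± 4.46 CPM in NC. SLC46A1, a folate transporter also described as a heme carrier, and FLVCR2, a relative of the heme exporter FLVCR1, fell 2.45-fold and 3.39-fold. The calls of ABCB6, SLC46A1 and FLVCR2 were lost without either NC replicate and without SPNS2 replicate 2, with an adjusted p of at most 0.127, 0.123 and 0.146, and that of FLVCR2 also with no filter on low counts (0.0564). The 1 gene called higher, named after its value was seen, was CPOX, coproporphyrinogen oxidase of heme synthesis. It was at 112 and 109 CPM in SPNS2 and 82.1 and 92.4 CPM in NC (edgeR adjusted p = 0.0479). The call of CPOX lies close to the threshold and was not followed through the alternative settings. ALAS1, the first enzyme of heme synthesis, was at 64.8 ± 5.79 CPM in SPNS2 and 62.5 ± 2.89 CPM in NC (edgeR adjusted p = 0.735).

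Of 27 genes of mitochondrial iron and iron-sulfur clusters 3 rose, 1 fell and 23 were not called (14.8% called, beside 23.4% of all tested genes, with a median log2 fold change of 0.06). SLC25A37, the mitochondrial iron importer mitoferrin 1, was at 134 and 148 CPM in SPNS2 and at 91.6 and 99.4 CPM in NC, 1.47-fold higher (edgeR adjusted p = 0.017). NUBP1 and ISCA2, assembly factors of iron-sulfur clusters, rose 1.44-fold and 1.57-fold, and the scaffold ISCU fell 1.35-fold. The call of SLC25A37 was lost without either NC replicate and without SPNS2 replicate 2, and those of NUBP1, ISCA2 and ISCU when any 1 library was left out, with an adjusted p of at most 0.157. Those of ISCA2 and ISCU were also lost with no filter on low counts (0.0797 and 0.0606), and that of ISCA2 with library totals (0.0551).

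**Figure D5:**
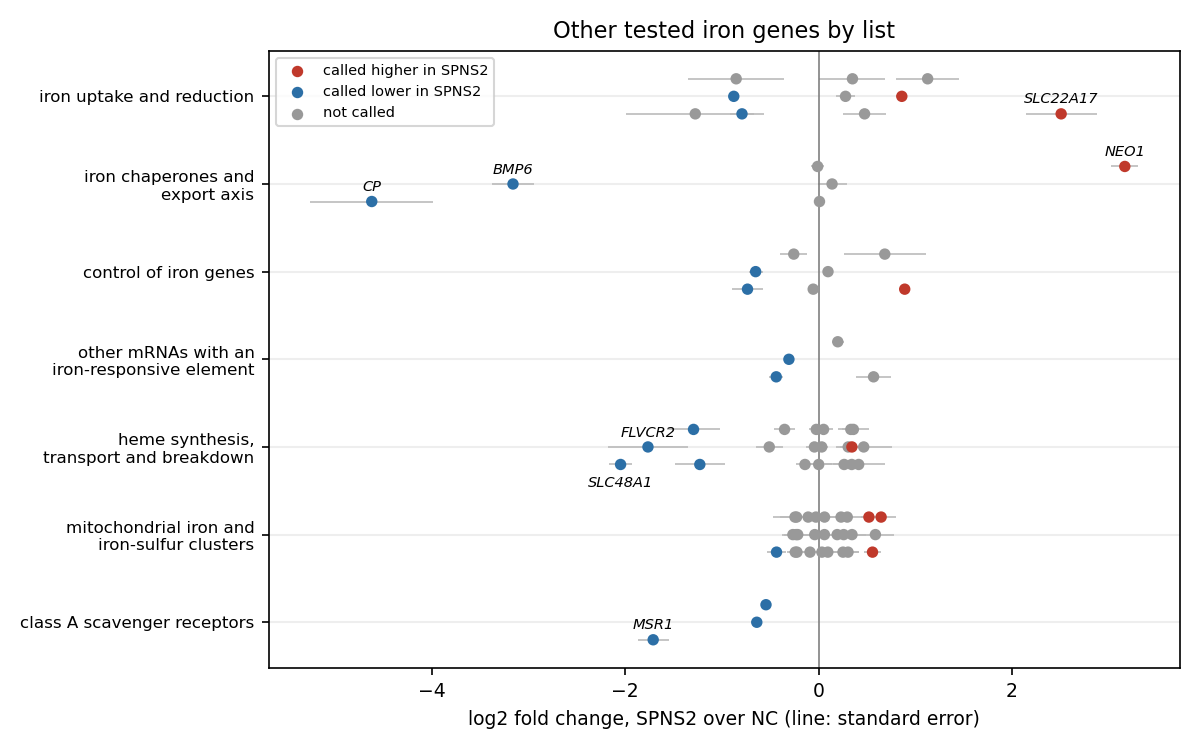
Log2 fold change of SPNS2 over NC (horizontal axis, with the standard error as a line) of the 77 other tested iron genes, 1 point per gene, in rows by list. CP and BMP6 lie farthest to the left and NEO1 and SLC22A17 farthest to the right, while the genes of mitochondrial iron and iron-sulfur clusters stay close to 0.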

How the data were processed

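The authors deposited raw counts per Ensembl gene, whole numbers without normalization, for 4 libraries. The submitters' processing notes name HISAT2 2.2.1, Trim Galore 0.6.9, featureCounts 0.3 and, as the build, hg38. Not given in the sources used here are the strand setting, how multi-mapping reads were handled and the annotation release, so overlapping genes and near-identical copies are uncertain. 1 row without counts was left out.

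Genes were filtered with filterByExpr (minimum count 10, minimum total 15), scaled by TMM and compared with edgeR 4.0.16 (R 4.3.3) by its quasi-likelihood test, two-sided, with group as the only term and Benjamini-Hochberg adjustment over all 17853 tested genes. Genes under an adjusted p of 0.05 were called. After the main fit, the test was also run on counts simulated from the NC means and the trended dispersion. There it called 14% of 50 genes changed 1.5-fold, 32% of 50 changed 2-fold and 82% of 50 changed 4-fold. A gene not called may therefore still differ. Fewer genes were changed there than were called in the data, so these shares do not carry over. Standard errors were obtained from the log2 fold change and the F statistic (their ratio, with the root of F), and n = 2 libraries per group. Positions and exon lengths came from GENCODE release 29, matched by Ensembl identifier for 17382 tested genes. A group with 0 counts was set to a floor of 3 counts over the group.

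Members and lists were chosen with earlier results of these data known. Named genes were all 10 members, the class A scavenger receptors, up to 4 called genes with the smallest p of each other list, the 5 patterns nearest to SCARA5 (log2 CPM, prior count 2), its neighbours, and the ferritin copies with most counts. The alternatives were each library left out, DESeq2 1.42.0, RLE factors, library totals, a replicate number as block, a filter at a mean of 1 CPM and none at all.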

Additional observations from a re-analysis of the deposited data

How the results depend on the processing

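Over all genes, 4171 were called, 5039 by DESeq2 and 1976 with the replicate block, and 1712 to 2144 with 1 library left out. Of the 90 other iron genes, 8 were called higher and 16 lower, 12 and 17 by DESeq2, 6 and 10 with the replicate block, and 3 to 5 and 7 to 14 with 1 library left out. Leaving out a library leaves 3 libraries, so that 1 group has a lone library assumed to vary like the other group. Same-numbered libraries did not deviate together (r = -0.078 across 17853 genes), so the block rests on a shared number alone. Of the named genes outside the 10, with it the calls of NUGGC, EPAS1, CDC42BPA, NFE2L2, SLC46A1, FLVCR2, NUBP1, ISCU and ISCA2 were lost (adjusted p 0.053 to 0.102). The bound on SCARA5 ran from 238-fold to 523-fold with 1 library left out, and was 258-fold without SPNS2 replicate 1 and 238-fold without SPNS2 replicate 2, where the floor of 3 counts stands over 1 library. It was 495-fold to 516-fold with other scalings and is not defined by the filters or the block. Over the 4 fits that each omit 1 library, log2 fold changes ran from 0.02 to 0.18 for FTH1, 0.30 to 0.33 for FTL, -0.15 to -0.11 for TFRC, -0.69 to -0.38 for SLC11A2, -0.31 to -0.14 for NCOA4, 0.37 to 0.45 for STEAP3 and -0.33 to -0.27 for IREB2, and no alternative changed a sign among these 7. FTH1 was 0.04 with library totals, the lowest of the other settings. NUGGC did not pass a minimum mean of 1 CPM and has no value there.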
